A study of Mus musculus with 28 samples.

Results

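Described here are 10 genes of Wnt signalling: the ligands Wnt4, Wnt5a, Wnt5b, Wnt9a and Wnt11, the Wnt enhancer Rspo3, the transcription factors Lef1 and Tcf7, and the feedback inhibitors Axin2 and Nkd1. They were chosen by name, and each symbol matched 1 of the 54429 gene identifiers in the deposited count table, of which 28192 had at least 1 count. The cells were O9-1, a mouse cranial neural crest line. RNA from 8 groups of cultures was sequenced: proliferating cells and cells in chondrocyte, osteoblast or smooth muscle medium, each at 21% oxygen (normoxic, n = 4) or 0.5% oxygen (hypoxic, n = 3), 28 libraries in all. Proliferating cells were kept in medium conditioned by STO feeder cells with 15% serum, 25 ng/ml basic FGF and 5 ng/ml LIF. Chondrocyte cultures had 3 days of osteoblast medium and then 7 days as a micromass on matrigel-coated plastic with 5% serum, insulin-transferrin-selenium, 0.1 µM dexamethasone, 10 ng/ml TGF-beta3 and 50 ng/ml BMP-2. Osteoblast cultures had 10 days with 10% serum, 10 mM beta-glycerophosphate, 0.1 µM dexamethasone and 100 ng/ml BMP-2. Smooth muscle cultures had 3 days in DMEM with 10% serum and no added growth factor. All media held penicillin and streptomycin. All groups come from 1 line, and duration, serum and added factors differ between the culture types together with the name of the cell type, so a difference between culture types cannot be told apart from these.

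Wnt proteins are secreted, lipid-modified ligands that bind Frizzled receptors. In the canonical branch they keep beta-catenin from degradation, and beta-catenin then acts with TCF/LEF factors on target genes, among them Axin2 and Nkd1, whose products damp the pathway. Wnt5a, Wnt5b and Wnt11 are known mainly for non-canonical signalling through Ror and planar polarity proteins, Wnt4 and Wnt9a are known from cartilage, joints and bone, and R-spondins such as Rspo3 amplify Wnt signals by keeping Frizzled receptors at the cell surface. Cranial neural crest cells form much of the facial skeleton and respond to Wnt signals at several steps.

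Libraries held 19869271 to 64693346 counts. The 3 hypoxic smooth muscle libraries stood apart: mitochondrial ribosomal RNA took 11.6% to 13.3% of their counts against at most 0.0889% in the other 25 libraries. They also had the lowest composition factors (0.50 to 0.53). Their summed smooth muscle markers (Acta2, Tagln and 4 others, all 6 with a count) came to 94.7 to 119 counts per 1000000 (CPM), against 191 to 195 CPM in hypoxic and 94.1 to 103 CPM in normoxic proliferating cells. They came to 3529 to 3990 CPM in normoxic smooth muscle, 3560 to 5099 CPM in normoxic osteoblast and 1887 to 2523 CPM in the other differentiated cultures. Of 3 blood markers, Adgre1 was at 0 in those libraries, Ptprc was at most 0.278 CPM and Cd68 was 32.7 to 36.4 CPM, against a summed 5.41 CPM at most elsewhere. The 6 osteoblast markers summed to 64.7, 73.8 and 72.6 CPM in normoxic osteoblast replicates 1 to 3, of which Runx2 made 59.6, 69.1 and 68.2 CPM, and to 146.6 CPM in replicate 4. They summed to 61.3 to 71.1 CPM in normoxic proliferating cells, 373 to 402 CPM in hypoxic osteoblast and 1104 to 2597 CPM in normoxic chondrocyte cultures. The names of the groups are therefore used as the labels give them, not as shown cell types. The 6 chondrocyte markers summed to 2817 to 8485 CPM in normoxic and 845 to 1260 CPM in hypoxic chondrocyte cultures, with no overlap. Col2a1 had means of 3512 and 274 CPM there, Acan 1964 and 622 CPM, Col9a1 35.6 and 0.143 CPM and Comp 51.8 and 3.67 CPM, Sox9 was 159 and 160.5 CPM with overlapping libraries, and Matn1 was at or near 0 in both. A list of known low-oxygen response genes separated the oxygen levels, with 238 to 1252 summed CPM at 21% and 2535 to 4572 at 0.5%. In bulk cultures, fewer cells of a type and less RNA per cell cannot be told apart. Nothing in the labels says that the libraries of a group came from separate cultures, so each p-value measures only the spread between these libraries.

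Upstream sequences of 4 members are shown because the results turn on them: Wnt4, Wnt11 and Nkd1 differed with both culture type and oxygen, and Axin2 is the textbook target of the pathway. They are the 250 bases before a RefSeq transcription start (GRCm38.p6), 5′ to 3′ on the gene's strand. Capitals mark the hypoxia-inducible factor core, whose letters are ACGTG with the variant that starts with G (written GCGTG), and the TCF/LEF letters, CTTTG followed by 2 letters that are each A or T. Both strands were searched, and overlapping matches were each counted. Wnt11 lies at chr7:98834862-98835111, Wnt4 at chr4:137277385-137277634, Nkd1 at chr8:88527383-88527632 and Axin2 at chr11:108920099-108920348, all on the plus strand.
Wnt11: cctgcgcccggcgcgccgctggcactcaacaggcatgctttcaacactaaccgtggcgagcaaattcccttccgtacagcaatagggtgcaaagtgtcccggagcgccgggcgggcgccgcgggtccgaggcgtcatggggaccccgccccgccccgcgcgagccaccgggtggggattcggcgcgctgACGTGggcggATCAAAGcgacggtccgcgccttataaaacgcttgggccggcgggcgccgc
Wnt4: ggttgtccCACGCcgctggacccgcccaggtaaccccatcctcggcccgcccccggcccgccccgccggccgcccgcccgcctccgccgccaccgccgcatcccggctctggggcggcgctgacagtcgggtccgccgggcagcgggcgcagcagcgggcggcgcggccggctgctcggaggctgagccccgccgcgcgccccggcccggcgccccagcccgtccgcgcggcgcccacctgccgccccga
Nkd1: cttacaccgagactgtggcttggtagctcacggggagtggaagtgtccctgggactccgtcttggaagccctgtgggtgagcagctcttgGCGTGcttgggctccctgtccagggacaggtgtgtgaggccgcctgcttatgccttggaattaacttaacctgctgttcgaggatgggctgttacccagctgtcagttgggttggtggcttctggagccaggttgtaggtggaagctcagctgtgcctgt
Axin2: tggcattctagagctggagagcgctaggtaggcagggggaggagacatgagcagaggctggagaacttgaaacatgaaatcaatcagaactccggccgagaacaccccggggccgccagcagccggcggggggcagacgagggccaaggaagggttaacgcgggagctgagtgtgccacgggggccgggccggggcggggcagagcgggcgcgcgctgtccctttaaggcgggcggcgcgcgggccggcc
In the Wnt11 window shown ACGTG began 61 bases before the start and CTTTGAT, on the opposite strand, 51 bases before it. Another listed Wnt11 window, chr7:98838595-98838844, held 1 GCGTG, on the opposite strand, 27 bases before its start, and no TCF/LEF match. The Nkd1 window shown lies inside the annotated span of the gene, chr8:88521354-88594884. Wnt4 held 1 GCGTG, on the opposite strand, 242 bases before the start, Nkd1 held 1 at 160 bases, and Axin2 held none of these letters. The table had 15 promoters for 8 of the members and no entry for Wnt5a and Rspo3. Of the 15, 8 held a hypoxia core, 3 held a TCF/LEF match and 2 held both. Of all 32851 promoters listed, 38.6% held a hypoxia core, 14.8% held a TCF/LEF match and 4.3% held both. These are letter matches, not measured binding sites.

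Wnt4 (ENSMUSG00000036856, chr4:137277489-137299726 on GRCm38) had group means from 0.326 to 102.7 CPM. Its levels in normoxic proliferating cells were 0.188, 0.405, 0.464 and 0.245 CPM, and in hypoxic proliferating cells 1.43, 1.37 and 0.890 CPM. Normoxic chondrocyte cultures had 27.9, 39.7, 27.6 and 30.7 CPM and hypoxic ones 56.1, 58.6 and 59.8 CPM. Normoxic osteoblast cultures had 19.6, 19.7, 21.5 and 41.7 CPM and hypoxic ones 112, 109 and 86.9 CPM. Hypoxic libraries were above every normoxic library in all 3 of these culture types. Smooth muscle cultures went the other way, with 2.33, 3.11, 2.67 and 5.74 CPM at 21% and 1.13, 0.199 and 0.185 CPM at 0.5%. Against proliferating cells Wnt4 rose by 6.61 ± 0.21 (log2, SE; 97.5-fold) in normoxic chondrocyte cultures (adjusted p = 1.15e-10 by edgeR's quasi-likelihood test with Benjamini-Hochberg adjustment, used throughout), by 6.30 ± 0.38 in normoxic osteoblast cultures (adjusted p = 2.75e-07) and by 6.38 ± 0.16 in hypoxic osteoblast cultures (adjusted p = 2.55e-14). At 0.5% against 21% oxygen it was higher by 1.94 ± 0.38 in proliferating (adjusted p = 0.000477), 0.88 ± 0.12 in chondrocyte (adjusted p = 0.000372) and 2.00 ± 0.28 in osteoblast cultures (adjusted p = 0.00064), and it fell by 2.61 ± 0.56 on the log2 scale in smooth muscle cultures (adjusted p = 0.000643). Without hypoxic smooth muscle replicate 1 the last value was -4.09, and with library size alone it was -3.95.

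Wnt5a (ENSMUSG00000021994, chr14:28504750-28527448) had the highest mean of the 5 ligands in 7 of the 8 groups per kilobase of exon. In 1 of the 7, hypoxic smooth muscle, Wnt5a (1.46 ± 0.23 CPM per kb) and Wnt9a (1.41 ± 0.62) overlapped, and Wnt9a was above Wnt5a in 2 of the 3 libraries. It measured 35.0, 33.7, 31.8 and 38.8 CPM in normoxic proliferating and 39.4, 41.3 and 36.2 CPM in hypoxic proliferating cells, ranges that overlap. In chondrocyte cultures it measured 109, 111.0, 112 and 97.6 CPM at 21% and 139, 144 and 132 CPM at 0.5%. In osteoblast cultures it measured 228, 236, 231 and 108 CPM at 21% and 55.9, 47.5 and 40.97 CPM at 0.5%. Hypoxic libraries were thus above all normoxic ones in chondrocyte and below all of them in osteoblast cultures. Smooth muscle cultures had 152, 155, 157 and 165 CPM at 21% and 9.75, 11.1 and 13.3 CPM at 0.5%, the lowest group of all. Wnt5a rose from proliferating cells in normoxic chondrocyte (1.70 ± 0.074, adjusted p = 1.19e-09), osteoblast (2.58 ± 0.23, adjusted p = 4.41e-06) and smooth muscle cultures (2.23 ± 0.067, adjusted p = 1.1e-13). At 0.5% against 21% oxygen it rose by 0.36 ± 0.067 in chondrocyte cultures (adjusted p = 0.00274), and it fell by 2.06 ± 0.28 in osteoblast cultures (adjusted p = 0.000461) and by 3.73 ± 0.11 in smooth muscle cultures (adjusted p = 3.06e-13). The small rises of 0.22 ± 0.080 in hypoxic against normoxic proliferating cells (adjusted p = 0.0265) and of 0.30 ± 0.11 in hypoxic osteoblast against hypoxic proliferating cells (adjusted p = 0.0214) each lost their call when single libraries were left out, with adjusted p up to 0.129 and 0.099. For the first these were normoxic proliferating replicates 2 and 3 and hypoxic proliferating replicates 1 and 2, and for the second hypoxic proliferating replicates 1 and 3 and hypoxic osteoblast replicate 1. Under scaling by library size alone they were 0.14 (adjusted p = 0.139) and 0.071 (adjusted p = 0.578), and in 1 fit of all 28 libraries their adjusted p were 0.454 and 0.145.

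**Figure D1:**
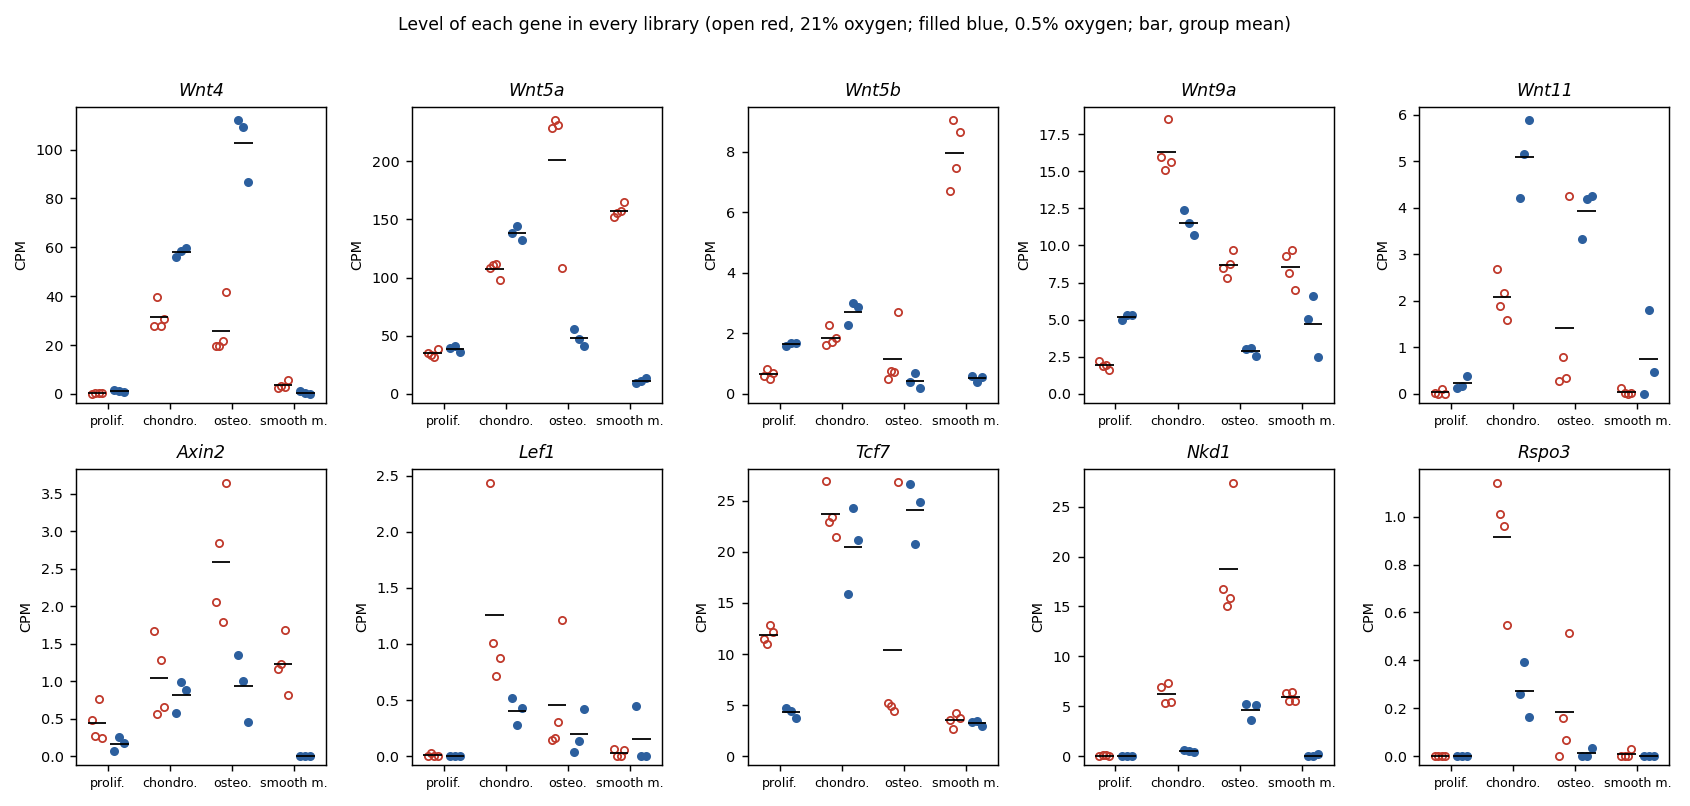
Level of each of the 10 genes in every library, in CPM on the vertical axis of its own panel, with the 8 groups along the horizontal axis. Each point is 1 library and each bar a group mean; Wnt4 reaches 112 CPM in hypoxic osteoblast cultures, and normoxic osteoblast replicate 4 lies away from the other libraries of its group in several panels.

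Wnt5b (ENSMUSG00000030170, chr6:119432531-119544347), a close relative of Wnt5a, was highest in normoxic smooth muscle cultures at 6.71, 9.05, 7.48 and 8.66 CPM. No other library exceeded 2.99 CPM. It was 3.61 ± 0.19 (log2) above normoxic proliferating cells there (adjusted p = 6.5e-11), and hypoxic smooth muscle cultures, at 0.600, 0.399 and 0.556 CPM, were lower by 3.85 ± 0.31 on the log2 scale (adjusted p = 2.42e-08). In hypoxic proliferating cells it was 1.59, 1.69 and 1.68 CPM against 0.497 to 0.837 CPM in normoxic ones, a rise of 1.36 ± 0.28 (adjusted p = 0.000724). It rose in chondrocyte cultures at both oxygen levels, by 1.54 ± 0.26 at 21% (adjusted p = 0.000166) and by 0.70 ± 0.25 at 0.5% (adjusted p = 0.0213). The second of these was lost without hypoxic proliferating replicate 1 or hypoxic chondrocyte replicate 2 (adjusted p up to 0.0616), under scaling by library size alone (0.38, adjusted p = 0.188) and in 1 fit of all 28 libraries (adjusted p = 0.113).

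Wnt9a (ENSMUSG00000000126, chr11:59306928-59333552) was highest in normoxic chondrocyte cultures, with 15.9, 15.1, 18.5 and 15.6 CPM. Hypoxic chondrocyte cultures followed with 12.4, 11.5 and 10.7 CPM, without overlap, a fall of 0.51 ± 0.11 on the log2 scale (adjusted p = 0.00756). In osteoblast cultures it measured 8.45, 7.81, 8.75 and 9.70 CPM at 21% and 3.02, 3.13 and 2.57 CPM at 0.5%. That was a fall of 1.58 ± 0.15 (adjusted p = 3.4e-05). In proliferating cells the direction was opposite, with 2.21, 1.90, 1.96 and 1.61 CPM at 21% and 4.97, 5.32 and 5.31 CPM at 0.5%, a rise of 1.49 ± 0.17 (adjusted p = 3.3e-06). Smooth muscle cultures had 9.28, 8.16, 9.69 and 7.03 CPM at 21% and 5.02, 6.58 and 2.50 CPM at 0.5%; the change of -0.80 ± 0.27 (adjusted p = 0.0139) was -0.52 without hypoxic smooth muscle replicate 3 and -2.17 with library size alone. From hypoxic proliferating to hypoxic osteoblast cultures Wnt9a fell by 0.84 ± 0.18 (adjusted p = 0.000773), while from normoxic proliferating to normoxic osteoblast cultures it rose by 2.23 ± 0.14 (adjusted p = 3.02e-07).

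Wnt11 (ENSMUSG00000015957, chr7:98835112-98855195) was near absent from normoxic proliferating cells and highest in chondrocyte and hypoxic osteoblast cultures. Normoxic proliferating libraries had 0.0269, 0, 0.0994 and 0 CPM and hypoxic ones 0.130, 0.180 and 0.377 CPM. Chondrocyte cultures had 2.69, 1.90, 2.17 and 1.60 CPM at 21% and 4.22, 5.16 and 5.88 CPM at 0.5%, a rise with low oxygen of 1.27 ± 0.22 (adjusted p = 0.0019). The 2 ranges do not overlap. Osteoblast cultures had 0.279, 0.789, 0.339 and 4.26 CPM at 21% and 3.33, 4.19 and 4.26 CPM at 0.5%. Because replicate 4 of the normoxic group lies among the hypoxic values, that difference was not called (1.45 ± 0.85, adjusted p = 0.186). Without that library it was 3.08 ± 0.34 (adjusted p = 4.66e-06). The rise from hypoxic proliferating cells was 4.45 ± 0.35 in hypoxic chondrocyte (adjusted p = 9.42e-08) and 4.08 ± 0.37 in hypoxic osteoblast cultures (adjusted p = 8.14e-08). In smooth muscle cultures Wnt11 was at most 0.123 CPM at 21% and 0, 1.80 and 0.463 CPM at 0.5%, and it was too low there to be tested.

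Summed over all 19 Wnt ligand genes, per kilobase of exon, ligand RNA was 5.54 ± 0.37 CPM per kb (SD) in normoxic proliferating cells, 28.4 ± 1.8 in normoxic chondrocyte, 35.7 ± 3.9 in normoxic osteoblast and 27.5 ± 1.0 in normoxic smooth muscle cultures. At 0.5% oxygen the sums were 7.85 ± 0.39, 38.5 ± 1.1, 33.9 ± 4.2 and 14.1 ± 2.6 CPM per kb in the same order; these sums were not tested. Wnt5a held the largest share of the sum in every library of 6 groups, from 80.3% ± 1.4 in normoxic proliferating cells to 45.9% ± 1.4 in hypoxic chondrocyte cultures. In hypoxic osteoblast cultures Wnt4 was first with 72.2% ± 0.96 and Wnt5a held 18.1% ± 1.1. In normoxic osteoblast cultures Wnt5a held 70.5% ± 16.2, with 46.2% in replicate 4, and Wnt4 held 17.9% ± 10.3. In chondrocyte cultures the sum was spread over Wnt5a, Wnt4 (26.3% at 21% and 36.1% at 0.5% oxygen) and, at 21%, Wnt9a (17.3%). In hypoxic smooth muscle cultures the leading ligand was no member of the set but Wnt1, named after its values were seen, with 18.5, 29.2 and 23.7 CPM and 70.8% ± 4.4 of the sum. Its 796 counts there stood against 0 in hypoxic proliferating and 0 in normoxic smooth muscle libraries, at least 682-fold and at least 1080-fold higher against 3 counts over the group (adjusted p = 2.53e-08 and 1.54e-10). The high mitochondrial ribosomal RNA and the low smooth muscle markers belong to the same 3 libraries; their part in this was not tested.

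**Figure D2:**
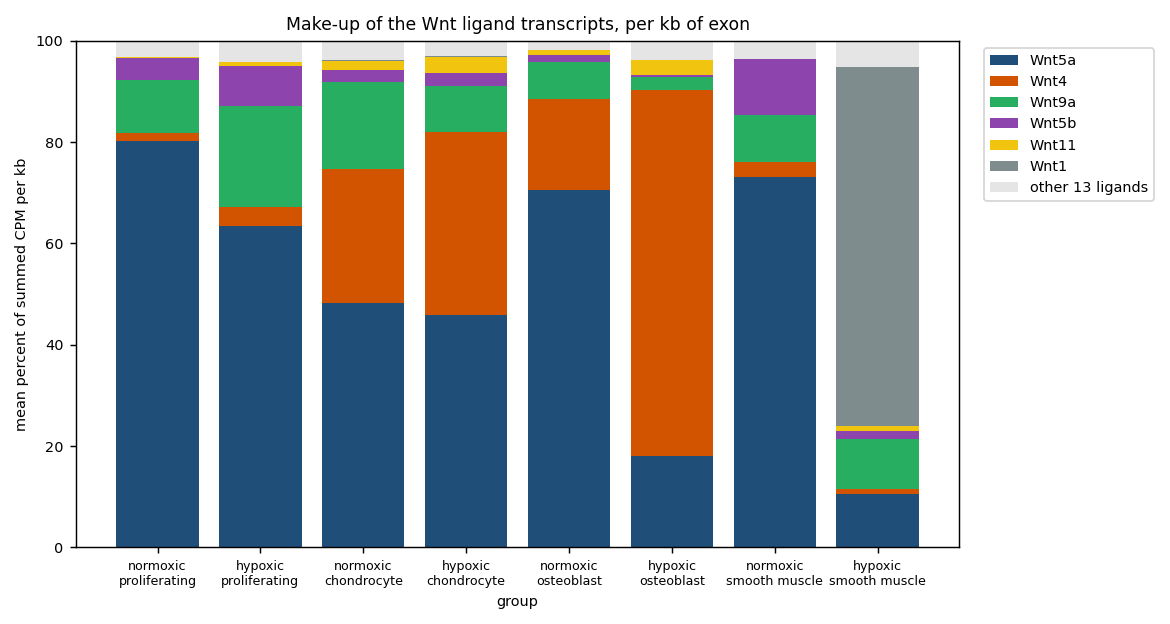
Make-up of the summed Wnt ligand RNA in each group, as the mean percent of the summed CPM per kb of exon over the libraries of the group (vertical axis), with 1 stacked bar per group. Wnt5a is the largest part of 6 bars, Wnt4 fills 72.2% of the hypoxic osteoblast bar and Wnt1 fills 70.8% of the hypoxic smooth muscle bar.

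Rspo3 (ENSMUSG00000019880, chr10:29452416-29535867) was scarce and highest in chondrocyte cultures. Normoxic chondrocyte libraries had 1.14, 1.01, 0.960 and 0.546 CPM and hypoxic ones 0.258, 0.394 and 0.164 CPM. All 7 proliferating and all 3 hypoxic smooth muscle libraries were at 0, 1 normoxic smooth muscle library had 0.0292 CPM, and osteoblast libraries had at most 0.512 CPM. Against normoxic proliferating cells normoxic chondrocyte cultures were at least 52.3-fold higher (floor of 3 counts over the group, adjusted p = 1.22e-05). In chondrocyte cultures it fell by 1.77 ± 0.47 on the log2 scale from 21% to 0.5% oxygen (adjusted p = 0.0183), a call lost without hypoxic chondrocyte replicate 1 or 3 (adjusted p up to 0.08) and in 1 fit of all 28 libraries (up to 0.113). Summed chondrocyte markers were lower in the same hypoxic libraries (845 to 1260 against 2817 to 8485 CPM), and their part in this was not tested. The gene's whole count over 28 libraries was 151, so small differences were not detectable at this depth.

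Lef1 (ENSMUSG00000027985, chr3:131110471-131224356), a TCF/LEF factor that rises with active canonical signalling in many tissues, was also scarce, with 268 counts in all. It was highest in normoxic chondrocyte cultures (2.44, 1.01, 0.711 and 0.873 CPM), where 2 counts in the normoxic proliferating libraries gave a ratio of 112 (95% counting interval 30.3 to 930, adjusted p = 6.91e-06). Hypoxic chondrocyte cultures had 0.515, 0.276 and 0.427 CPM, below every normoxic one. That fall of 1.63 ± 0.51 (adjusted p = 0.0398) kept its call in 2 of 7 fits with 1 library left out, those without normoxic chondrocyte replicate 3 or 4, with adjusted p up to 0.127 in the others and a value of -1.07 without normoxic chondrocyte replicate 1, and lost it with limma-voom and in 1 fit of all 28 libraries (up to 0.16). In hypoxic proliferating cells it was at 0, and in hypoxic smooth muscle cultures 1 library had 0.450 CPM and the others 0.

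Tcf7 (ENSMUSG00000000782, chr11:52252371-52283014), which encodes TCF1, was far more abundant and followed the culture type differently at the 2 oxygen levels. Proliferating cells had 11.4, 10.95, 12.8 and 12.1 CPM at 21% and 4.68, 4.45 and 3.73 CPM at 0.5%, a fall of 1.40 ± 0.13 on the log2 scale (adjusted p = 3.07e-07). Chondrocyte cultures had 26.9, 22.9, 23.4 and 21.5 CPM at 21% and 15.9, 24.3 and 21.2 CPM at 0.5%, which overlap (adjusted p = 0.306). Osteoblast cultures had 5.24, 4.93, 4.41 and 26.9 CPM at 21% and 26.6, 20.8 and 24.9 CPM at 0.5%. So 3 normoxic osteoblast libraries lie under every proliferating library of their oxygen level and the other lies above all of them. The normoxic osteoblast change was -0.12 with adjusted p = 0.845, and -1.27 ± 0.12 with adjusted p = 2.86e-07 without replicate 4. The hypoxic osteoblast rise was 2.48 ± 0.14 (adjusted p = 3.2e-10). Smooth muscle cultures had 3.52, 2.63, 4.26 and 3.73 CPM at 21% and 3.37, 3.49 and 2.96 CPM at 0.5%, with a fall of 1.69 ± 0.14 from proliferating cells at 21% (adjusted p = 2.11e-08).

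Axin2 (ENSMUSG00000000142, chr11:108920349-108950783), a scaffold of the beta-catenin destruction complex and a widely used readout of canonical Wnt signalling, was low throughout, between 0 and 3.65 CPM. It was highest in normoxic osteoblast cultures, at 2.06, 2.84, 1.80 and 3.65 CPM, and was 0.484, 0.270, 0.762 and 0.245 CPM in normoxic proliferating cells. That rise was 2.64 ± 0.40 (adjusted p = 0.000161). Hypoxic osteoblast cultures had 1.36, 0.996 and 0.458 CPM, lower by 1.47 ± 0.40 on the log2 scale than normoxic ones (adjusted p = 0.0127). Chondrocyte cultures had 0.566 to 1.67 CPM at 21% and 0.580 to 0.984 CPM at 0.5%, with no called oxygen difference (adjusted p = 0.6). Their rise of 1.37 ± 0.47 from normoxic proliferating cells (adjusted p = 0.0188) was lost without normoxic proliferating replicate 2 or normoxic chondrocyte replicate 1 (adjusted p up to 0.0666) and under scaling by library size alone. Normoxic smooth muscle libraries had 170 counts in all and hypoxic ones 0, at least 14.0-fold lower (adjusted p = 0.000103). Hypoxic proliferating libraries had only 14 counts.

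Nkd1 (ENSMUSG00000031661, chr8:88521354-88594884), which binds Dishevelled and restrains Wnt signalling, had the largest fall with low oxygen in chondrocyte cultures among the 10 genes. It was nearly absent in proliferating cells, with 0, 0.122, 0.0663 and 0 CPM at 21% and 0 in every library at 0.5%. In normoxic cultures it was 6.91, 5.34, 7.32 and 5.42 CPM in the chondrocyte, 16.8, 15.0, 15.9 and 27.4 CPM in the osteoblast and 6.31, 5.53, 6.41 and 5.57 CPM in the smooth muscle group. In hypoxic cultures it was 0.580, 0.473 and 0.460 CPM, 5.23, 3.57 and 5.10 CPM, and 0, 0 and 0.185 CPM in the same order. In these 3 culture types every hypoxic library was below every normoxic one. The falls with low oxygen were 3.62 ± 0.24 (12.3-fold, adjusted p = 2.21e-06) in chondrocyte and 2.02 ± 0.25 (adjusted p = 0.000174) in osteoblast cultures. The cartilage collagen Col2a1 was 3512 CPM in the normoxic and 274 CPM in the hypoxic chondrocyte libraries, and its part in the Nkd1 difference was not tested. In smooth muscle cultures the normoxic level was higher by a ratio of 101 (95% counting interval 28 to 839, adjusted p = 5.51e-08); both hypoxic counts lay in replicate 3. The rises from proliferating cells were 6.65 ± 0.43 in normoxic chondrocyte (adjusted p = 3.66e-08), 8.21 ± 0.48 in normoxic osteoblast (adjusted p = 2.25e-07) and 6.55 ± 0.38 in normoxic smooth muscle cultures (adjusted p = 1.83e-10), and at least 14.8-fold in hypoxic chondrocyte and at least 135-fold in hypoxic osteoblast cultures (adjusted p = 0.000192 and 1.05e-08).

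Counting calls across the set, differentiated cultures at 21% oxygen were compared with normoxic proliferating cells. In chondrocyte cultures all 10 genes were tested and all 10 rose, where 74.9% of all tested genes were called, 37.7% upward and 37.2% downward. Wnt11, Lef1, Nkd1 and Rspo3 had only 4, 2, 11 and 0 counts over the normoxic proliferating libraries. These passed the count filter only through the chondrocyte libraries, so they could only be called higher. With at least 10 counts required in every library 4 members were called. In osteoblast cultures 5 of 7 tested rose (Wnt4, Wnt5a, Wnt9a, Axin2 and Nkd1), where 78.7% of all tested genes were called, 40.9% upward and 37.8% downward. Wnt5b (0.88, adjusted p = 0.151) and Tcf7 were not called, and Wnt11, Lef1 and Rspo3 were too low to test. In smooth muscle cultures 6 of 7 tested rose and Tcf7 fell, where 79.7% were called, 40.8% upward and 38.9% downward. Nkd1 passed the filter only through the differentiated libraries in the osteoblast and smooth muscle comparisons too. The 3 comparisons share the same normoxic proliferating libraries.

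The same comparisons at 0.5% oxygen share the hypoxic proliferating libraries. In chondrocyte cultures all 8 tested members rose, where 69.5% of all tested genes were called, 34.9% upward and 34.6% downward. Wnt11, Axin2 and Nkd1 had only 20, 14 and 0 counts over the hypoxic proliferating libraries. In the chondrocyte and osteoblast comparisons they passed the count filter only through the differentiated libraries, so they could only be called higher. In osteoblast cultures 6 of 8 rose and Wnt5b and Wnt9a fell, where 71.3% were called, 36.2% upward and 35.1% downward. Wnt5b fell by 1.93 ± 0.42 (adjusted p = 0.000697). In smooth muscle cultures none rose and 2 of 5 fell, Wnt5a by 1.66 ± 0.14 (adjusted p = 6.69e-07) and Wnt5b by 1.53 ± 0.48 (adjusted p = 0.0138), where 70% were called, 33.8% upward and 36.2% downward. Wnt4 and Wnt5b passed the filter in the smooth muscle comparison only through the proliferating libraries, so they could only be called lower. The Wnt5b call there was lost without any 1 of the 3 hypoxic proliferating libraries (adjusted p up to 0.0576), and without hypoxic smooth muscle replicate 1 Wnt4 was called too (-2.52, adjusted p = 0.00869). Scaling by library size alone moved the median of all genes in this comparison to -1.35, since the composition factors of these libraries are low, and then all 5 tested members were lower, with Wnt5a at -2.94 and Wnt5b at -2.79. These are the libraries with high mitochondrial ribosomal RNA and Cd68, whose part in the members' values was not tested.

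Oxygen was compared within each culture type. In proliferating cells Wnt4, Wnt5a, Wnt5b and Wnt9a rose and Tcf7 fell at 0.5%, all 5 of the tested members, where 65.4% of all tested genes were called, 33.1% upward and 32.3% downward. In chondrocyte cultures 3 of 10 rose (Wnt4, Wnt5a and Wnt11) and 4 fell (Wnt9a, Lef1, Nkd1 and Rspo3), where 22.2% were called, 10.4% upward and 11.8% downward. Rspo3 passed the count filter there only through the normoxic libraries, so it could only be called lower. The hypoxic chondrocyte libraries are also those with the lower Col2a1, Acan, Col9a1 and Comp, whose part in these 7 calls was not tested. In 1 fit of all 28 libraries 3 members were called there, and Wnt5a (adjusted p = 0.125), Wnt11 (adjusted p = 0.186), Lef1 and Rspo3 were not. In osteoblast cultures Wnt4 rose and Wnt5a, Wnt9a, Axin2 and Nkd1 fell, 5 of 8 tested, where 54.3% were called, 27% upward and 27.3% downward. The 6 osteoblast markers summed to 64.7 to 146.6 CPM in the normoxic and 373 to 402 CPM in the hypoxic osteoblast libraries. Their part in these 5 calls was not tested. In smooth muscle cultures 6 of 7 tested members fell and Tcf7 did not pass (-0.05, adjusted p = 0.883), where 75.6% were called, 35.4% upward and 40.2% downward. Wnt4, Wnt5b, Axin2 and Nkd1 had only 19, 18, 0 and 2 counts over the hypoxic smooth muscle libraries. These passed the count filter only through the normoxic libraries, so they could only be called lower. With at least 10 counts required in every library 2 members were called. Library size alone moved the median of all genes to -1.49 in the last comparison and Tcf7 with it, to -1.41.

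Chondrocyte and osteoblast cultures were also compared with each other. At 21% oxygen Wnt9a (0.89 ± 0.11, adjusted p = 7.55e-05) and Rspo3 (2.23 ± 0.70, adjusted p = 0.0202) were higher in chondrocyte cultures, and Wnt5a (-0.93 ± 0.22, adjusted p = 0.00578), Axin2 (-1.31 ± 0.38, adjusted p = 0.0136) and Nkd1 (-1.61 ± 0.21, adjusted p = 0.000141) were lower, 5 of 10, where 59.7% of all tested genes were called, 28.6% upward and 31.1% downward. The Rspo3 call was lost without normoxic osteoblast replicate 2 or 3 (adjusted p up to 0.0572), and its value was 3.56 without replicate 4. Rspo3 passed the count filter there only through the chondrocyte libraries, so it could only be called higher. At 0.5% oxygen Wnt5a (1.53 ± 0.11), Wnt5b (2.65 ± 0.40) and Wnt9a (1.99 ± 0.16) were higher in chondrocyte cultures, with adjusted p of 1.03e-07, 8.86e-05 and 3.83e-07. Wnt4 (-0.82 ± 0.10, adjusted p = 1.76e-05) and Nkd1 (-3.18 ± 0.29, adjusted p = 1.14e-06) were lower, 5 of 9 in all, where 57.6% were called, 28.6% upward and 29% downward. Mean Wnt5a was thus lower in chondrocyte than in osteoblast cultures at 21% oxygen and higher at 0.5%. At 21% the libraries overlapped, since osteoblast replicate 4 (108.1 CPM) lay within the chondrocyte range of 97.6 to 111.7 CPM.

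**Figure D3:**
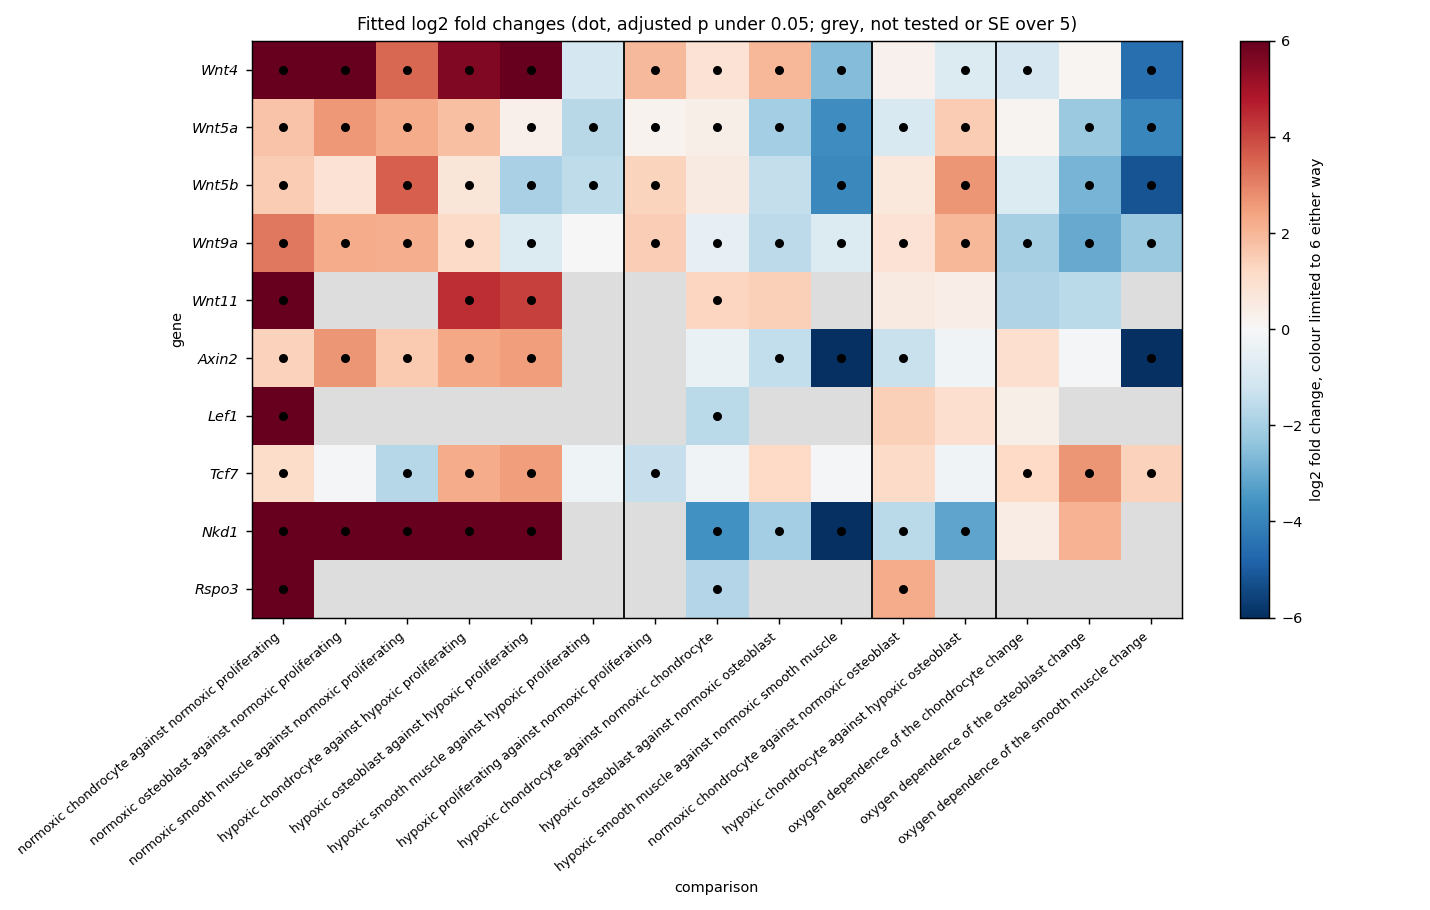
Log2 fold change of each gene (vertical) in each of the 12 comparisons and 3 oxygen interactions (horizontal), on a colour scale limited to 6 in either direction. A dot marks an adjusted p under 0.05 and grey marks a gene that was not tested or had no usable standard error; Nkd1 is lower at 0.5% than at 21% oxygen in all 3 differentiated cultures, and smooth muscle at 0.5% against 21% is lower for 6 genes.

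Normoxic osteoblast replicate 4 lay outside the range of replicates 1 to 3 for all 10 members, and for 75.6% of the 16540 genes kept over the 28 libraries, where replicates 1 to 3 each lay outside the range of the rest for 39.2% to 40.9%. Replicate 4 had the highest such share in the other normoxic groups too, 67.1% in proliferating, 57.0% in chondrocyte and 60.1% in smooth muscle cultures. Relative to the mean of the other 3, normoxic osteoblast replicate 4 held 9.08-fold as much Wnt11, 6.82-fold Rspo3, 6.06-fold Lef1, 5.53-fold Tcf7, 4.19-fold Wnt5b, 2.06-fold Wnt4, 1.72-fold Nkd1, 1.64-fold Axin2 and 1.16-fold Wnt9a, and 0.467-fold as much Wnt5a. For Wnt4, Wnt5a, Wnt11 and Tcf7 the replicate 4 value lay on the side of the hypoxic osteoblast values, and for Wnt9a, Axin2 and Nkd1 it lay away from them. For Wnt5b, Lef1 and Rspo3 the hypoxic libraries overlapped replicates 1 to 3. The same library held 45.4 CPM of the osteoblast factor Sp7 against 0.670 to 1.36 CPM in the other 3, 3.20 CPM of the bone matrix gene Ibsp against 0.384 to 0.475 CPM, and 775 CPM of the cartilage collagen Col2a1 against 35.6 to 43.6 CPM. Of the other osteoblast markers it held more Alpl (1.39 to 2.52 CPM in the other 3), less Runx2 (57.1 CPM against 59.6 to 69.1) and Dmp1 (0.448 CPM against 1.025 to 1.99), and 0.448 CPM of Bglap against at most 0.0339 CPM. Its summed low-oxygen response genes, 520.8 CPM, were lower than the 637.7 to 656.1 CPM of the other 3 and far below every hypoxic library. The part of these differences in the members' values was not tested. Without it, normoxic chondrocyte against normoxic osteoblast cultures gave 10 of 10 calls, with 66.9% of all tested genes called: 7 members higher, with Tcf7 at 2.27, Lef1 at 2.61, Wnt11 at 2.15, Wnt5b at 1.49 and Wnt4 at 0.61, and 3 lower. Hypoxic against normoxic osteoblast cultures gave 7 of 8 calls without it, with 65.6% called, among them Tcf7 at 2.31 ± 0.13 (adjusted p = 6.85e-09).

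**Figure D4:**
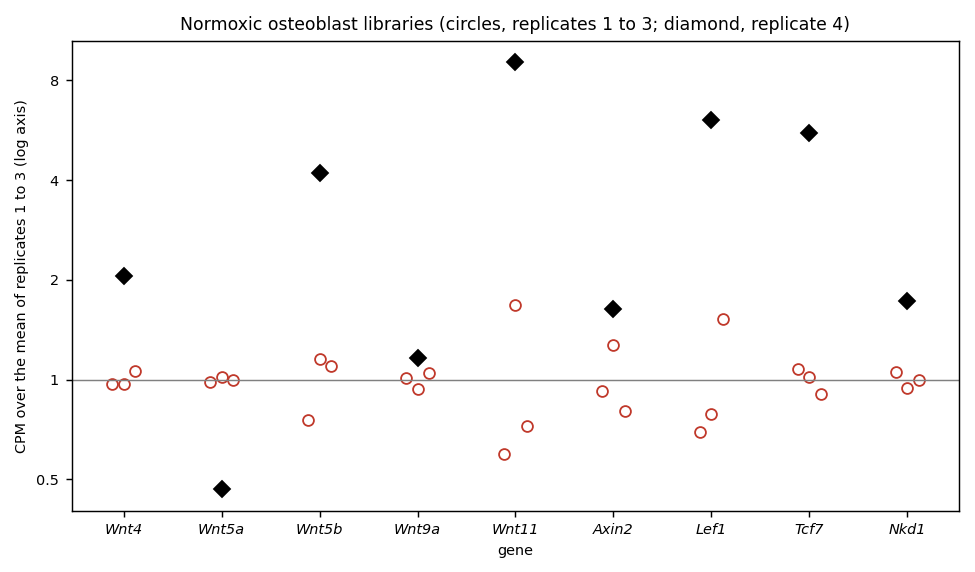
CPM of 9 members in each normoxic osteoblast library, divided by the mean of replicates 1 to 3 (vertical axis, log scale), with 1 point per library. Rspo3 is left out because it was 0 in 1 library; replicate 4 reaches 9.08 for Wnt11 and 0.467 for Wnt5a while the other 3 stay near 1 for the abundant genes.

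Whether the change with culture type itself depended on oxygen was tested as an interaction, the change from proliferating cells at 0.5% minus that at 21%. For chondrocyte cultures 3 of 10 members were called, where 43.5% of all tested genes were, 21.6% upward and 21.9% downward: Wnt4 (-1.02 ± 0.31, adjusted p = 0.0125) and Wnt9a (-1.98 ± 0.18, adjusted p = 1.23e-07) rose less at 0.5%, and Tcf7 (1.20 ± 0.19, adjusted p = 6.53e-05) rose more. The Wnt4 call was lost with limma-voom and in 1 fit of all 28 libraries (adjusted p up to 0.199) and the Tcf7 call in the latter (0.104). For osteoblast cultures 4 of 8 were called, where 54.2% were, 28.9% upward and 25.3% downward: Wnt5a (-2.24 ± 0.30, adjusted p = 3.53e-05), Wnt5b (-2.78 ± 0.74, adjusted p = 0.00487), Wnt9a (-3.03 ± 0.21, adjusted p = 1.61e-08) and Tcf7 (2.65 ± 0.78, adjusted p = 0.013). Without normoxic osteoblast replicate 4 these were -2.44, -1.90, -2.96 and 3.76, all called, with 60.5% of all tested genes called. For Wnt4 in osteoblast cultures the difference was 0.12 ± 0.60 and did not pass (adjusted p = 0.888).

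For smooth muscle cultures 6 of 7 members were called, where 70.4% of all tested genes were, 34.9% upward and 35.5% downward. Wnt4 (-4.51 ± 0.70, adjusted p = 6.09e-06), Wnt5a (-3.91 ± 0.14, adjusted p = 1.47e-16), Wnt5b (-5.16 ± 0.39, adjusted p = 1.02e-10) and Wnt9a (-2.25 ± 0.33, adjusted p = 2.31e-06) rose from proliferating cells at 21%, and at 0.5% none of them was called higher. The Axin2 estimate (-6.89 ± 1.95, adjusted p = 0.00384) rests on 0 counts in the hypoxic smooth muscle libraries and depends on the prior count. Tcf7 had 1.40 ± 0.27 (adjusted p = 7.97e-05), which was 0.068 with library size alone (adjusted p = 0.833) and lost its call in 1 fit of all 28 libraries. With library size alone Wnt9a was -3.585. The values for Rspo3 in chondrocyte and Nkd1 in smooth muscle cultures have no usable standard error, since one side of each rests on libraries at 0.

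**Figure D5:**
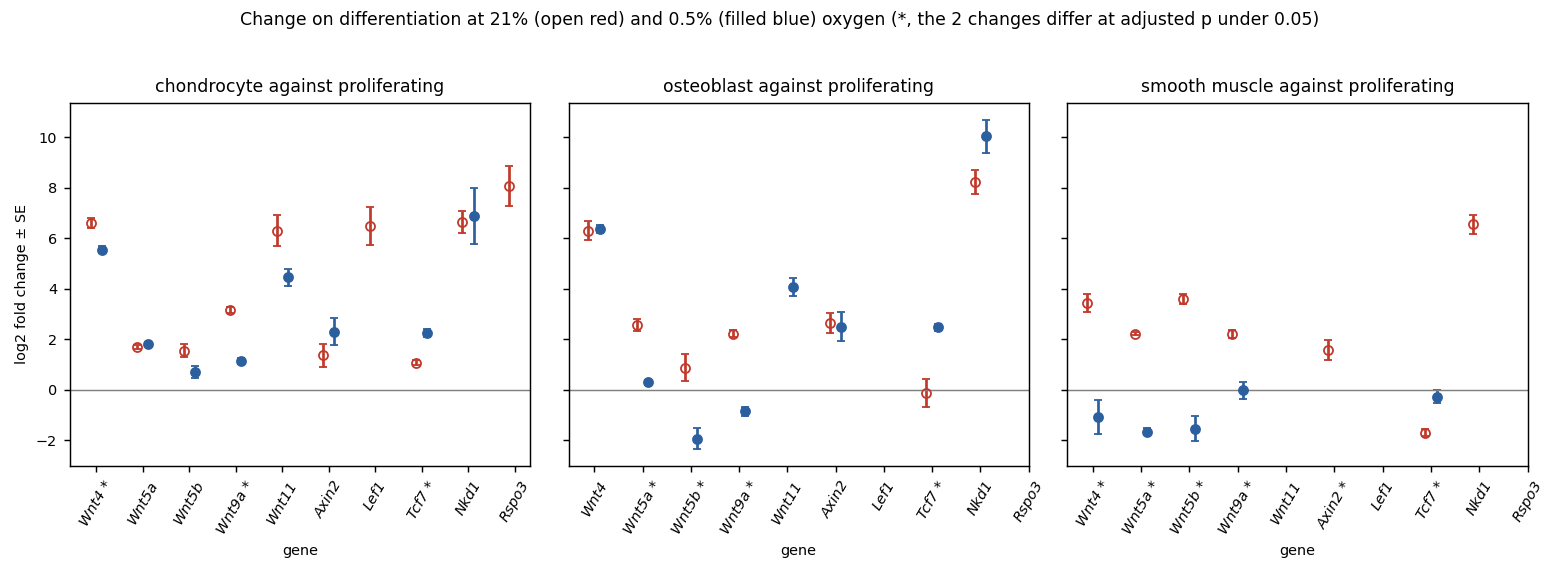
Change of each member from proliferating cells to each culture type (log2 fold change ± SE, vertical axis), at 21% and at 0.5% oxygen side by side; a star marks a difference between the oxygen levels with adjusted p under 0.05. Wnt9a carries a star in all 3 culture types, and so does Tcf7, with the opposite sign.

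Other genes of the pathway were described in 7 lists of 75 genes. The Wnt secretion list holds Porcn and Wls, which lipidate Wnts and carry them to the surface, Gpc4, a glypican that bears heparan sulfate chains, and Sulf1 and Sulf2, which remove sulfate from them. All 5 of its genes rose in normoxic chondrocyte, osteoblast and smooth muscle cultures and in hypoxic chondrocyte cultures against proliferating cells of the same oxygen level, with median changes of 2.78, 2.53, 2.90 and 1.73 beside medians of all genes of -0.003, 0.066, 0.028 and -0.021. All 5 also rose in hypoxic against normoxic proliferating cells (median 0.97 beside 0.015 for all genes), and 3 of them with library size alone. Porcn there rose by 2.24 ± 0.20 (adjusted p = 2.61e-07), from 1.55 ± 0.31 to 6.96 ± 1.3 CPM (SD). Against hypoxic proliferating cells 4 rose and Sulf1 fell in hypoxic osteoblast cultures (median 2.40), and in hypoxic smooth muscle cultures 2 rose (Porcn and Wls) and 3 fell (median -0.39). In the 6 comparisons with proliferating cells of the same oxygen level 33.8% to 40.9% of all genes were called higher and 34.6% to 38.9% lower. At 0.5% against 21% oxygen none rose and 2 fell in chondrocyte cultures (10.4% and 11.8% of all genes), 1 rose and 2 fell in osteoblast cultures (27% and 27.3%) and 1 rose and 3 fell in smooth muscle cultures (35.4% and 40.2%). Without normoxic osteoblast replicate 4 the osteoblast counts were 2 and 2, where 65.6% of all tested genes were called. In proliferating cells 33.1% of all genes rose with low oxygen.

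Among Frizzled receptors and LRP co-receptors, which bind the ligands, 8 of 11 tested rose and 1 fell in normoxic chondrocyte cultures (median 1.56), 9 rose and 2 fell in normoxic osteoblast (2.89) and 8 rose and 2 fell in normoxic smooth muscle cultures (1.08). At 0.5% oxygen 9 rose and 2 fell in chondrocyte (0.85), 7 rose and 1 fell in osteoblast (0.95), and none of 10 rose and 7 fell in smooth muscle cultures (-0.70). The medians of all genes in these 6 comparisons were -0.072 to 0.066. At 0.5% against 21% oxygen 4 Frizzled and LRP genes rose and 3 fell in proliferating cells, 2 and 3 in chondrocyte, 1 and 7 in osteoblast and 1 and 8 in smooth muscle cultures, where 10.4% to 35.4% of all genes were called higher and 11.8% to 40.2% lower. Non-canonical receptors and planar polarity genes, of which 10 or 11 were tested, were counted the same way. At 21% 8 rose and 2 fell in chondrocyte (median 0.906), 10 and 0 in osteoblast (0.888) and 9 and 0 in smooth muscle cultures (1.345). At 0.5% these were 7 and 3 (0.915), 7 and 4 (0.92), and 5 and 5 (-0.198) in the same order. In these 6 comparisons 33.8% to 40.9% of all genes were called higher and 34.6% to 38.9% lower. With low oxygen 3 of the planar polarity list rose and 4 fell in proliferating cells, and 1 and 2 in chondrocyte cultures. The counts were 2 and 4 in osteoblast and 2 and 8 in smooth muscle cultures. Of all genes 10.4% to 35.4% were again called higher and 11.8% to 40.2% lower. Without normoxic osteoblast replicate 4 the osteoblast counts with oxygen were 4 and 5, and 2 and 7 for the Frizzled and LRP genes. In that fit 65.6% of all tested genes were called. With library size alone 6 of the Frizzled and LRP genes rose in hypoxic chondrocyte cultures, and none of the planar polarity genes rose in hypoxic smooth muscle against hypoxic proliferating cells. The values for hypoxic smooth muscle cultures come from the libraries with high mitochondrial ribosomal RNA, whose part in them was not tested. Lgr6, an R-spondin receptor, had the largest rise in normoxic chondrocyte cultures among the listed genes that passed the naming rule (7.47 ± 0.29, adjusted p = 6.88e-09), from 0.572 ± 0.28 to 106 ± 25 CPM. Rspo2, a relative of Rspo3, was 11.7 ± 0.59 CPM in normoxic osteoblast and 0.585 ± 0.076 CPM in hypoxic osteoblast cultures, a fall of 4.30 ± 0.17 (adjusted p = 2.18e-07).

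The destruction complex list, 9 genes with Apc, Gsk3b and Ctnnb1 among them, had median changes between -0.17 and 0.43 in the 6 comparisons with proliferating cells of the same oxygen level, and between -1.08 and 0.20 with library size alone. Among other TCF factors, feedback and target genes, Ccnd1, the cyclin D1 gene, fell in all 6 of these comparisons, by 3.57 ± 0.23 in normoxic chondrocyte cultures (adjusted p = 3.77e-07), from 1184 ± 74 to 94.5 ± 31 CPM. Notum, whose product removes the lipid from Wnt proteins and so blocks them, measured 149 ± 12 CPM in hypoxic osteoblast cultures, 38.9 ± 9.0 CPM in hypoxic chondrocyte cultures and at most 22.5 CPM in any normoxic library. Its rise from hypoxic proliferating to hypoxic osteoblast cultures was 5.77 ± 0.14 (adjusted p = 4.25e-14), and against normoxic osteoblast cultures 4.41 ± 1.08 (adjusted p = 0.015). The normoxic osteoblast mean of 6.91 ± 10.4 CPM rests on replicate 4, and without that library the rise was 6.43 ± 0.12 (adjusted p = 8.13e-13). Axin2 and Nkd1, by contrast, were lower in hypoxic than in normoxic osteoblast cultures.

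The genes with the most similar pattern were taken by Pearson correlation of log2 CPM over the 28 libraries, as a description. All points share the 8 groups and their composition factors. Wnt4 was closest to Smad6 (r = 0.969) and Ddr1 (0.968), Wnt5a to Tmem127 (0.967) and Jkamp (0.965), and Nkd1 to Slc7a2 (0.972) and Gxylt2 (0.971). Axin2 was closest to Sgsh (0.94) and Foxf2 (0.939), Tcf7 to Crlf3 (0.932), and Wnt11 to Havcr2 (0.915) and Nrip3 (0.906). Wnt9a (Slc40a1, 0.906; Fam210b, 0.902) and Wnt5b (Zfp266, 0.873; Gdf7, 0.872) had weaker matches, and Lef1 and Rspo3 were too low for this. Without the 3 hypoxic smooth muscle libraries 6 of the 16 neighbours taken, 2 per member, were the same. Among the other 8 members the highest value was 0.862, for Wnt5a with Axin2, and the lowest was -0.168 for Wnt5b with Tcf7.

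In the authors' deposited tables, which give their own fold changes for 10 of the comparisons, all 63 member calls made here had the same sign, with a largest difference of 1.46 on the log2 scale. Annotated genes overlap Wnt5a, Axin2, Lef1, Tcf7, Nkd1 and Rspo3 on one strand or the other; the library kit keeps strand, per the labels, but the strand setting of the counting is not given in the sources used here, so reads of such partners may be included.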

How the data were processed

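Stranded polyA RNA libraries of O9-1 cells were sequenced, per the labels' protocols. The authors' files were made with HISAT2 2.0.5, StringTie 1.3.3b and featureCounts 1.5.0-p3 on mm10, per the submitters' processing notes, which give no roles. The main deposited table holds raw counts per gene for 28 libraries; 70 normalised per-library columns were not used. The authors' deposited comparison tables give log2 fold changes and p-values, used only for the sign check.

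From the counts, TMM-scaled counts per 1000000 (CPM) were computed, with merged exon lengths from GENCODE M21. Each comparison was fitted on its own groups over all genes with edgeR 4.0.16 (R 4.3.3; quasi-likelihood test, filterByExpr with a minimum count of 10 and total of 15), with Benjamini-Hochberg adjusted p under 0.05 as the call. The SE is the log2 fold change over the root of F. A group at 0 was set to a floor of 3 counts over the group; ratios with 1 to 3 counts have exact 95% intervals. Intervals and floors cover counting error only. The fits were also run on simulated counts with the same dispersion for every gene, few changed genes and no outlying library. That setting is simpler than these data. All 10 members were described; pathway genes were named where they had the largest called rise or fall in a comparison, with a mean of at least 10 counts in each group and no overlap of the groups, and pattern neighbours were the 2 highest correlations of log2 CPM (prior count 2) per member, of which 1 is not reported here. Alternatives were DESeq2 1.42.0, limma-voom 3.58.1, other scalings and filters, 1 fit of all libraries, a replicate block, and leaving out each library. The members and lists were chosen with earlier results of these data known. Batches are not given in the sources used here.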

Additional observations from a re-analysis of the deposited data

Results flagged for a closer look

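In groups of 4 libraries, each member was examined for 1 library far from the other 3, and 9 of 39 such groups had one. Over the genes kept in the 28 libraries 10.7% of such groups had one. That share was 7.06% in normoxic smooth muscle and 18.4% in normoxic osteoblast libraries. Of the 9, 7 were normoxic osteoblast replicate 4, which was far from the other 3 for 16.0% of all genes that varied there, so the 9 are not independent. It had the highest level in its group of Wnt4 (41.7 CPM), Wnt5b (2.72 CPM), Wnt11 (4.26 CPM), Lef1 (1.22 CPM), Tcf7 (26.9 CPM) and Nkd1 (27.4 CPM), and the lowest of Wnt5a (108.1 CPM). In the other cases the rest of the group was at 0: Lef1 in normoxic proliferating replicate 2 (0.0270 CPM) rests on 2 counts and Rspo3 in normoxic smooth muscle replicate 4 (0.0292 CPM) on 1 count.

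The change from proliferating cells differed between the oxygen levels by the interaction test in 13 cases (values are the log2 change at 0.5% minus that at 21%). In chondrocyte cultures these were Wnt4 (-1.02), Wnt9a (-1.98) and Tcf7 (1.20). In osteoblast cultures they were Wnt5a (-2.24), Wnt5b (-2.78), Wnt9a (-3.03) and Tcf7 (2.65). In smooth muscle cultures they were Wnt4 (-4.51), Wnt5a (-3.91), Wnt5b (-5.16), Wnt9a (-2.25), Axin2 (-6.89) and Tcf7 (1.40), the last 0.068 with library size alone.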

How the results depend on the processing

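The number of genes called stayed within 1.5 times in all 135 other settings and in 125 of 126 fits with 1 library left out. The exception was hypoxic against normoxic chondrocyte cultures, with 3157 genes called and 2091 to 3359 with 1 library left out, 2091 without hypoxic chondrocyte replicate 3. Requiring at least 10 counts in every library, which tests fewer members, called 4 members in normoxic chondrocyte, 2 in normoxic osteoblast and 4 in normoxic smooth muscle cultures, 5, 4 and 1 in the hypoxic ones in that order (each against proliferating cells), 2 in hypoxic against normoxic smooth muscle cultures and 3 in the smooth muscle interaction. No filter gave 8 in normoxic osteoblast against proliferating cultures. One fit of all 28 libraries gave 9 there, 4 in hypoxic smooth muscle against hypoxic proliferating, 3 in hypoxic against normoxic chondrocyte, 8 in hypoxic against normoxic osteoblast cultures and 1 in the chondrocyte interaction, where DESeq2 gave 5. Library size alone gave 5 in hypoxic smooth muscle against proliferating cultures, and leaving out 1 library gave 1 to 4. Leaving out 1 library gave 4 to 10 members for normoxic chondrocyte against normoxic osteoblast cultures, 10 without normoxic osteoblast replicate 4.

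Leaving out single libraries for the pathway genes given with a test, an alternative chosen after seeing the data, kept the call in all 43 fits.

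Replicate numbers did not pair the libraries: no comparison had every same-number residual correlation over 0.1. A replicate block gave 1 member for hypoxic smooth muscle against hypoxic proliferating cultures (Wnt5b adjusted p = 0.0504), ended the calls of Axin2 (0.051) and Rspo3 (0.0606) for normoxic chondrocyte against osteoblast cultures, where it added Tcf7 (1.66), and added Tcf7 and Wnt11 for hypoxic against normoxic osteoblast cultures.

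The sign changed only for members that were not called. In normoxic osteoblast against proliferating cultures, leaving out 1 library gave -0.03 to 1.13 for Wnt5b and -1.27 to 0.13 for Tcf7. In hypoxic smooth muscle against proliferating cultures Wnt9a was 0.030 with RLE factors, 0.031 with DESeq2 and -0.34 to 0.26 with 1 library left out. In hypoxic against normoxic smooth muscle cultures Tcf7 was 0.003 with the replicate block and -0.18 to 0.044 with 1 library left out. Axin2 in hypoxic chondrocyte against osteoblast cultures ranged from -0.53 to 0.15. In the chondrocyte interaction Lef1 was -0.84 with DESeq2, -1.35 with limma-voom and -1.63 to 0.88 with 1 library left out, and Nkd1 was -0.428 with DESeq2, -2.225 with limma-voom and -1.08 to 0.76. In the osteoblast interaction Wnt4 was -0.007 with library size alone and -0.064 to 0.48 with 1 library left out, Wnt11 ranged from -2.96 to 0.029, Axin2 from -0.47 to 0.36, and Nkd1 was -0.62 with limma-voom. Lef1 and Nkd1 were at 0 in every hypoxic proliferating library, on which their interaction values rest in part. The causes were not tested.

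Library size alone moved the share of higher calls among all called genes from 50.3% to 34.7% (normoxic chondrocyte against proliferating), 50.2% to 31.8% (hypoxic chondrocyte against proliferating), 50.8% to 38.2% (hypoxic osteoblast against proliferating), 48.3% to 15.0% (hypoxic smooth muscle against proliferating), 46.8% to 15.6% (hypoxic against normoxic smooth muscle) and 49.6% to 16.6% (smooth muscle interaction). It moved 46.9% to 31.8% and 49.6% to 36.9% for chondrocyte and osteoblast cultures at 0.5% against 21%, and 48.0% to 34.3% for normoxic chondrocyte against osteoblast. Depth limits Lef1, Rspo3, Axin2, Wnt11 and Nkd1, since many of their libraries hold few counts.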

Other observations

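Of the 14 other Wnt ligand genes, several had levels that stood out in 1 or 2 groups; they are named after their values were seen. Wnt16 was 3.63 ± 0.40 CPM (SD, n = 4) in normoxic smooth muscle cultures, with 3.09 to 4.03 CPM, and at most 0.0789 CPM in any other library. Wnt6 was 0.878 ± 0.31 CPM in normoxic and 1.68 ± 0.39 CPM in hypoxic osteoblast cultures, and at most 0.0986 CPM elsewhere. Wnt10b was 2.77 ± 0.91 CPM in hypoxic chondrocyte and 1.97 ± 0.72 CPM in hypoxic smooth muscle cultures, and at most 1.11 CPM elsewhere. Wnt2 was 1.77 ± 0.30 CPM in normoxic chondrocyte cultures and at most 0.893 CPM in any other library.

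Of the R-spondins, Rspo1 was 12.8 ± 2.3 CPM in normoxic smooth muscle cultures and 0 to 0.15 CPM in hypoxic ones, and Rspo2 was 5.03 ± 0.52 and 0.164 ± 0.21 CPM there. In the list of R-spondins, their receptors and E3 ligases, 5 of 6 tested genes fell in hypoxic against normoxic smooth muscle cultures and none rose, with a median change of -4.14 beside -0.12 for all genes, of which 40.2% were called lower and 35.4% higher. The 3 hypoxic smooth muscle libraries are those with high mitochondrial ribosomal RNA.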
